A study of Homo sapiens with 4 samples.

Results

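The levels of 7 genes that encode immune checkpoint ligands or related surface enzymes of tumor cells were followed in OVCA420 cells during treatment with TGF-β1. These genes are *CD274*, *PDCD1LG2*, *CD276*, *VTCN1*, *CD47*, *NT5E* and *PVR*, and they were chosen by gene symbol among the 33694 genes of the count matrices. All 7 were found, each once. OVCA420 is a human cell line of epithelial ovarian cancer, and TGF-β1 is a cytokine that drives epithelial-mesenchymal transition (EMT) in many carcinoma cells. Droplet-based 3′ scRNA-seq was performed on untreated cells (Ctrl) and on cells given 10 ng/mL TGF-β1 for 1, 3 or 7 days (1-day, 3-day and 7-day). Treatments were started at different times so that all cells were collected together, and cells were passaged to avoid confluence. Each of the 4 conditions is a single library, so that no difference has a replicate check, no p-value is given, and the 3 comparisons with Ctrl share the same control library. No immune cells were added to the cultures, and the values describe tumor cell transcripts, not surface protein.

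Checkpoint ligands are surface proteins through which a cell restrains the immune cells that touch it. PD-L1 (*CD274*) and PD-L2 (*PDCD1LG2*) bind PD-1 on T cells, and PD-L1 transcription is classically induced by interferons and other inflammatory cytokines. B7-H3 (*CD276*) and B7-H4 (*VTCN1*) are relatives of these ligands, and B7-H4 is known as a surface protein of ovarian carcinomas. CD47 binds SIRPα on macrophages as a signal against phagocytosis. CD73 (*NT5E*) converts extracellular AMP to immunosuppressive adenosine. PVR (CD155) is bound by the inhibitory receptor TIGIT and the activating receptor CD226 on T cells and NK cells.

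*CD274* (ENSG00000120217) lies on the plus strand at chr9:5450503-5470566 (GRCh38) and *PDCD1LG2* (ENSG00000197646) downstream of it at chr9:5510531-5571282. *CD276* (ENSG00000103855) is at chr15:73683966-73714514, *VTCN1* (ENSG00000134258) at chr1:117143587-117210960, *CD47* (ENSG00000196776) at chr3:108043091-108091862, *NT5E* (ENSG00000135318) at chr6:85449584-85495791 and *PVR* (ENSG00000073008) at chr19:44643798-44666162. Promoter windows of RefSeq (GRCh38.p14, from 250 bases before to 50 bases after a gene's start) were found for 6 of the 7 genes, *PDCD1LG2* being the exception. They were searched on both strands for 5 motifs, namely the core of the interferon-stimulated response element, the AP-1 site (TGANTCA), the SMAD box (CAGAC), the TEAD site (GGAATG) and the NF-κB site. The stretches of the *CD274* and *PVR* windows upstream of the annotated gene are shown because these genes had the largest differences from Ctrl among the members with more than 100 UMIs, one of them late and the other early. Both read 5′ to 3′ on the plus strand, with motif matches in capitals.
CD274, chr9:5450292-5450502: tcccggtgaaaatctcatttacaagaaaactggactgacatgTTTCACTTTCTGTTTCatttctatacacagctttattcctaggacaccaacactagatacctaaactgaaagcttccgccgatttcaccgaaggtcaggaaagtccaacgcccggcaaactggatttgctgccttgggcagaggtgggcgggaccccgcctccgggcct
PVR, chr19:44643660-44643797: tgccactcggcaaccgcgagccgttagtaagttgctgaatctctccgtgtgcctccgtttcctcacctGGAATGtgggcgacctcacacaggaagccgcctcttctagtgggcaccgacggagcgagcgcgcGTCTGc
The capitals of *CD274* are 2 overlapping matches of the interferon response core, which begin 208 and 202 bases before the RefSeq start. This core was present in 3.57% of the 35116 promoter windows and in no window of the other members. In *PVR* the capitals are 1 TEAD match, 182 bases before the start, and 1 SMAD match read on the minus strand, 118 bases before the start. TEAD matches were present in 14.0% of all windows and SMAD matches in 45.3%. Another SMAD match lay past the start of *PVR*, outside the stretch shown. No AP-1, SMAD, TEAD or NF-κB match lay in the *CD274* window. Among the other members, SMAD matches lay in windows of *CD276* and *CD47*, an NF-κB match in *CD276* and an AP-1 match in *VTCN1*. *NT5E* had no match. AP-1 matches were present in 7.71% of all windows and NF-κB matches in 11.3%. A match is a description of the letters and says nothing of binding in these cells.

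The barcode lists held between 2253 and 3372 cells per library, and the first 23.0% to 36.3% of them in barcode order were analysed here. The retained cells numbered 933 in Ctrl, 937 after 1 day, 705 after 3 days and 569 after 7 days, with 25382817 to 32949874 unique molecular identifiers (UMIs) per library. Library pairs shared 1 to 7 barcodes. The median depth per cell was 30270 UMIs in Ctrl, 32393 after 1 day, 43553 after 3 days and 43382 after 7 days. Phase calls also differed, with 26.3% of cells in G1 in Ctrl against 78.2% after 1 day, 47.7% after 3 days and 37.4% after 7 days. All 8 reference genes of the TGF-β1 response were at least 2-fold higher than Ctrl at 3-day and at 7-day, and 7 of 8 were at 1-day. The epithelial markers *EPCAM*, *CDH1*, *KRT8* and *KRT18* were present in every library, while *PAX8* and *MSLN*, both used as markers of ovarian carcinoma, stayed below 0.4 CPM. Of the 11 epithelial markers listed, 8 had a mean of at least 1 CPM. By the 2-fold rule given below, 2 of these were higher and 1 lower than Ctrl at 1-day. At both 3-day and 7-day, 1 was higher and 2 were lower. Of all genes tested, 10.1%, 10.9% and 12.9% were higher at 1-day, 3-day and 7-day, and 10.6%, 8.54% and 7.84% lower. These shares hold for the reference genes above as well. With 8 epithelial markers, the counts say little of a change in the markers as a set. The pan-leukocyte marker *PTPRC* had 2 UMIs in Ctrl and 0 in each treated library. The summed CPM of 11 immune cell markers was 2.50 in Ctrl, 3.46 after 1 day, 5.91 after 3 days and 10.1 after 7 days. In the treated libraries nearly all of it was *CD68* and *CD74*, and 3 of the 11 markers (*CD4*, *NKG7* and *MS4A1*) were at 0 everywhere. The summed CPM ranged from 0.28 to 1.37 over the libraries for 5 fibroblast markers and from 0.44 to 0.57 for 2 smooth muscle markers. For 4 endothelial markers it was 5.40 in Ctrl, nearly all *CDH5*, and 0.31 to 0.47 after treatment. The part of these differences in depth, phase and marker levels in the results below was not tested, except where a value within G1 cells or at equal depth is given.

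Levels are given as CPM, the UMIs of a gene in all cells of a library scaled to its total, with Poisson 95% intervals (exact), and differences as log2 ratios to Ctrl with exact conditional 95% intervals. These intervals cover counting error only. A gene was called higher or lower where it differed by at least 2-fold with an interval that left out 0, among the 12694 genes with a mean of at least 1 CPM over the 4 libraries. Of the 7 ligand genes, 5 passed this minimum. *PDCD1LG2* (mean 0.61 CPM) and *VTCN1* (mean 0.33 CPM) did not, and *CD274* (mean 3.60 CPM) passed only through its 3-day and 7-day libraries. *CD274* therefore had to differ between libraries. The counts and medians of the 5, also between treated times, follow in part from the minimum. At 1-day, 1 of the 5 was called higher (*PVR*), against 10.1% of all genes tested. At 3-day, 2 of the 5 were called higher (*CD274* and *PVR*), against 10.9%. At 7-day, 3 of the 5 were called higher (*CD274*, *NT5E* and *PVR*), against 12.9%. None of the 5 was called lower at any time, against 10.6% of all genes at 1-day, 8.54% after 3 days and 7.84% after 7 days. The minimum left out *VTCN1*, which met the 2-fold and interval limits for lower at all 3 times. With no minimum, 1, 3 and 4 of the 7 genes met these limits upward at 1-day, 3-day and 7-day, and 1 downward each time. The median log2 ratio of the 5 was -0.09 after 1 day, 0.72 after 3 days and 1.11 after 7 days, and that of all genes tested was -0.07, 0.01 and 0.08. Between successive treated times, 1 of the 5 (*CD274*) was called higher from 1-day to 3-day, against 5.67% of all genes, and again from 3-day to 7-day, against 2.41%. None of the 5 was called lower in these steps, against 4.44% and 1.52%.

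**Figure D1:**
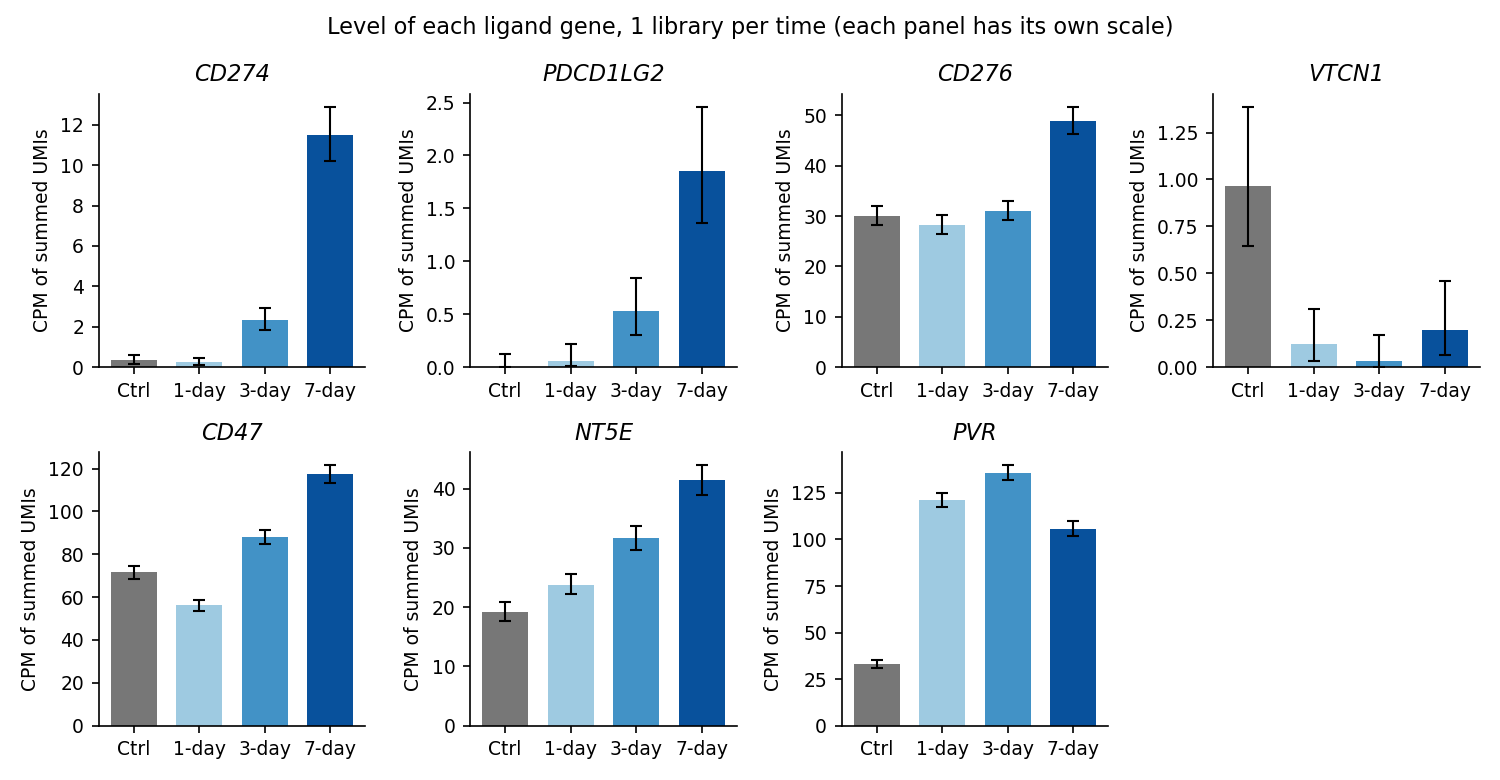
CPM of summed UMIs of each ligand gene in Ctrl and after 1, 3 and 7 days of TGF-β1, with 1 library per bar and exact Poisson 95% intervals, each panel on its own scale. *CD274* reached 11.5 CPM and *PDCD1LG2* 1.85 CPM at 7-day, *PVR* stood above 100 CPM at every treated time, and *VTCN1* was highest in Ctrl at 0.97 CPM.

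*CD274*, which encodes the PD-1 ligand PD-L1, was nearly undetected in Ctrl and at 1-day and was higher at 3-day and highest at 7-day. It had 10 UMIs in Ctrl, 8 after 1 day, 75 after 3 days and 292 after 7 days. These counts correspond to 0.33 CPM (0.16 to 0.61) in Ctrl, 0.24 (0.10 to 0.48) after 1 day, 2.33 (1.84 to 2.93) after 3 days and 11.5 (10.2 to 12.9) after 7 days. The intervals of Ctrl and 1-day overlap each other and none of the later ones. The log2 ratio to Ctrl was -0.46 (-2.001 to 1.04) after 1 day, 2.81 (1.85 to 3.93) after 3 days and 5.11 (4.21 to 6.18) after 7 days, the last a 34.5-fold difference. The 7-day value was 4.50 at an equal depth of 18000 UMIs per cell and 5.70 in G1 cells alone, resting on 7 and 2 UMIs in Ctrl. The 3-day value was 3.25 in the earlier and 2.22 in the later barcodes. Between the later times, 7-day exceeded 3-day 4.93-fold (3.81 to 6.44).

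The share of cells with *CD274* was read after each cell had been thinned to 18000 UMIs, so that the libraries were at equal depth. At this depth 7 of 844 Ctrl cells (0.83%, exact binomial 95% interval 0.33 to 1.70), 3 of 900 1-day cells (0.33%, 0.07 to 0.97), 25 of 677 3-day cells (3.69%, 2.40 to 5.40) and 83 of 549 7-day cells (15.1%, 12.2 to 18.4) had a *CD274* UMI. Without thinning the shares were 1.07% in Ctrl, 0.85% after 1 day, 9.65% after 3 days and 34.4% after 7 days. No cell type that should lack the gene is present in these cultures, so that the share given by free RNA was not measured, and the shares of Ctrl and 1-day may lie at or below it. At full depth, 131 of the 7-day cells had 1 UMI, 48 had 2 and 17 had 3 or more, with a maximum of 6 in a cell. Were all 7-day cells alike, the mean at equal depth would put a UMI in 17.1% of them, and the ratio of variance to mean was 1.26. The 10 cells with most *CD274* held 15.1% of its 7-day UMIs. Within the 7-day library, *CD274* was at 14.4 CPM (12.1 to 17.0) in G1 cells, 12.8 (9.89 to 16.4) in S cells and 8.45 (6.82 to 10.4) in G2M cells. G1 thus exceeded G2M by 0.77 on the log2 scale (0.37 to 1.16).

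*PDCD1LG2*, the gene of the second PD-1 ligand PD-L2, was likewise higher at 3-day and highest at 7-day, at a much smaller number of UMIs. It had 0 UMIs in Ctrl, 2 after 1 day, 17 after 3 days and 47 after 7 days. The levels were 0 CPM in Ctrl (upper limit 0.12), 0.06 (0.01 to 0.22) after 1 day, 0.53 (0.31 to 0.85) after 3 days and 1.85 (1.36 to 2.46) after 7 days. With no UMI in Ctrl the ratio has no upper limit, and its exact conditional 95% interval began at 3.85-fold for 3-day and at 14.5-fold for 7-day. Set against a floor of 3 UMIs in the Ctrl library, the ratio was 5.29-fold (log2 2.40) and 18.5-fold (log2 4.21). In G1 cells alone, with fewer UMIs above the same floor, it was 0.60 on the log2 scale at 3-day, short of 2-fold, and 2.44 at 7-day. The 7-day level was 3.50-fold that of 3-day (1.97 to 6.50). At equal depth a UMI was found in 0 of 844 Ctrl cells, which allows a share of cells with a UMI of up to 0.36% by the limit of 3 counts and 0.44% by the exact binomial interval, in 0.11% of 1-day cells, in 1.18% of 3-day cells and in 3.83% (2.38 to 5.79) of 7-day cells. Without thinning, 7.38% of 7-day cells had one.

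The genes of both PD-1 ligands lie side by side, and 10 other protein-coding genes lie within 500 kb of *CD274*. None of the 7 of them that passed the minimum level was called higher at any time. Of all genes tested, 10.1%, 10.9% and 12.9% were called higher at 1-day, 3-day and 7-day, and with so few genes a count of 0 is near these shares. *INSL6* and *MLANA* had at most 2 UMIs in any library. *JAK2*, a kinase of interferon receptors, had a 7-day log2 ratio of 0.66 (0.14 to 1.18), with 1.90 CPM in Ctrl and 2.99 after 7 days. *PLGRKT*, a plasminogen receptor, was at 43.5 CPM in Ctrl and 72.6 after 7 days, below a 2-fold difference. *ERMP1*, on the other side, was at 42.0 CPM in Ctrl, 19.8 after 1 day, 17.6 after 3 days and 22.7 after 7 days, and was called lower at 1-day and 3-day. *INSL4*, a relaxin-like hormone gene below the minimum level, had 2, 5, 12 and 19 UMIs in Ctrl, 1-day, 3-day and 7-day, with a 7-day log2 ratio of 3.49 (1.44 to 6.64). It met the 2-fold and interval limits for higher at 3-day and 7-day. An antisense lncRNA gene overlaps both *CD274* and *PDCD1LG2* in the annotation and has no row in the matrices.

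The known inputs of *CD274* transcription differed in part from Ctrl. Among 24 such genes, 7 were called higher at 1-day, 7 after 3 days and 12 after 7 days, and none was called lower. Of all genes tested, 10.1%, 10.9% and 12.9% were called higher at these times, and 10.6%, 8.54% and 7.84% lower. The median log2 ratio of the 24 at 7-day was 0.96, against 0.08 for all genes tested. The non-canonical NF-κB subunits *NFKB2* (3.97 CPM in Ctrl, 17.9 after 7 days, log2 2.18) and *RELB* (17.3 and 64.7 CPM, log2 1.90) had larger 7-day ratios than the canonical *RELA* (1.04) and *NFKB1* (1.01). The cytokine feedback inhibitors *SOCS1* (1.30 CPM in Ctrl, 13.4 after 7 days, log2 3.36) and *SOCS3* (log2 1.72) were also higher. *IRF1*, the factor through which interferon-γ acts on the *CD274* promoter, was at 11.0 CPM in Ctrl and 6.56 after 1 day, with a log2 ratio of -0.75 (-1.01 to -0.50). It was at 10.3 CPM after 3 days and 10.6 after 7 days, the latter with a log2 ratio of -0.06 (-0.30 to 0.18). *STAT2* (log2 1.43) and *IRF9* (log2 1.63), which take part in the type I interferon response, were called higher at 7-day only. *EGFR*, the receptor of epidermal growth factor, was called higher at all 3 times, from 33.0 CPM in Ctrl to 228 after 1 day, 235 after 3 days and 196 after 7 days. *JUN* was highest at 1-day (log2 1.98), *TEAD1* was called higher at all 3 times (log2 1.01, 1.20 and 1.28), *JAK1* at 1-day only (log2 1.06), and *IFNGR2* (log2 1.03) and *HIF1A* (log2 1.14) after 7 days only.

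Transcripts of cytokines known to raise PD-L1 were found in the tumor cells themselves. Of 10 such genes, 7 passed the minimum level. Of these 7, 4 were called higher and 1 lower at 1-day, 6 higher and 1 lower at 3-day, and all 7 higher at 7-day. Over all genes tested, 10.1%, 10.9% and 12.9% were called higher at these times, and 10.6%, 8.54% and 7.84% lower. *TNF*, *IL6* and *CSF2* were below 1 CPM in Ctrl and passed the minimum only through treated libraries, so that they had to differ and the count and median of this list follow in part from the minimum. *TNF* was at 0.20 CPM in Ctrl, 2.61 after 1 day, 17.4 after 3 days and 30.4 after 7 days (log2 7.25). *IL32* was at 3.93, 33.2, 265 and 395 CPM in the same order, and *IL6* at 0.07 CPM in Ctrl, at 0.06 and 1.12 CPM at 1-day and 3-day, and at 7.998 CPM at 7-day. *IL1A* went from 14.8 CPM in Ctrl to 84.5 after 7 days, *CSF2* from 0.07 to 4.25 and *TGFB1* from 87.4 to 197. *IL1B* was lower than Ctrl (1.40 CPM) after 1 day (0.06) and 3-day (0.56) and higher at 7-day (12.9). The interferon genes *IFNG* and *IFNL1* had 0 UMIs in every library, and *IFNB1* had 3, all at 7-day. The part of these cytokines, and of the inputs above, in the level of *CD274* was not tested.

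Regulators of the PD-L1 protein were listed as well. Among 12 genes, 1 was called higher at 1-day and 3-day and none at 7-day, against 10.1%, 10.9% and 12.9% of all genes. None was called lower, against 10.6%, 8.54% and 7.84%. With 12 genes, these counts are near the shares of all genes and say little of the regulators as a set. *HIP1R*, which directs PD-L1 to lysosomes, was the gene called higher, with log2 ratios of 1.30, 1.03 and 0.99. *CMTM6*, which protects PD-L1 from degradation, was at 120 CPM in Ctrl and 213 after 7 days (log2 0.83, 0.77 to 0.89).

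*CD276*, the gene of B7-H3, was at 30.1 CPM (28.1 to 32.1) in Ctrl, 28.3 (26.5 to 30.2) after 1 day, 31.1 (29.2 to 33.1) after 3 days and 49.0 (46.3 to 51.8) after 7 days. The intervals of the first 3 libraries overlap, and 7-day stands above them. Its log2 ratio to Ctrl was -0.09 (-0.22 to 0.05) after 1 day, 0.05 (-0.08 to 0.18) after 3 days and 0.70 (0.58 to 0.83) after 7 days, short of 2-fold. At equal depth a UMI was found in 40.5% of Ctrl cells, 39.0% of 1-day cells, 41.5% of 3-day cells and 58.8% (54.6 to 63.0) of 7-day cells. Without thinning these shares were 58.2%, 59.7%, 69.2% and 82.4%. The unthinned share was thus higher at 3-day than in Ctrl where the level and the share at equal depth were not. Within 7-day, G1 cells were at 62.6 CPM (57.6 to 67.9), S cells at 40.3 (34.9 to 46.3) and G2M cells at 41.3 (37.5 to 45.2). In Ctrl the phases did not differ beyond counting error (30.6 in G1 and 29.2 in G2M). Among G1 cells alone, the 7-day log2 ratio to Ctrl was 1.03, past 2-fold.

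*VTCN1*, the gene of B7-H4, was the only member lower than Ctrl at all 3 times. It had 29 UMIs in Ctrl, 4 after 1 day, 1 after 3 days and 5 after 7 days, or 0.97 CPM (0.65 to 1.39), 0.12 (0.03 to 0.31), 0.03 (up to 0.17) and 0.20 (0.06 to 0.46). The 3 treated libraries overlap each other and lie below the Ctrl interval. The log2 ratio to Ctrl was -2.99 (-4.96 to -1.48) after 1 day, -4.96 (-10.31 to -2.37) after 3 days and -2.30 (-4.02 to -0.91) after 7 days. The 7-day value was -3.72 in the earlier and -1.501 in the later barcodes. Over the alternative settings the 1-day value ranged from -3.49 (G1 cells) to -2.32 (equal depth) and the 3-day value from -5.31 (mean over cells) to -1.90 (equal depth, against the floor). The Ctrl UMIs came from 19 of 933 cells, of which 13 had 1 UMI, 4 had 2 and 2 had 3 or more, and the 10 highest cells held 69.0% of them. At equal depth 12 of 844 Ctrl cells (1.42%), 3 of 900 1-day cells (0.33%), 0 of 677 3-day cells and 2 of 549 7-day cells (0.36%) had a UMI. The count of 0 allows a share of cells with a UMI of up to 0.44% by the limit of 3 counts and 0.54% by the exact binomial interval. The binomial interval of Ctrl (0.74 to 2.47) lies above that of 3-day and overlaps those of 1-day (0.07 to 0.97) and 7-day (0.04 to 1.31), and the differences in shares themselves were not tested.

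**Figure D2:**
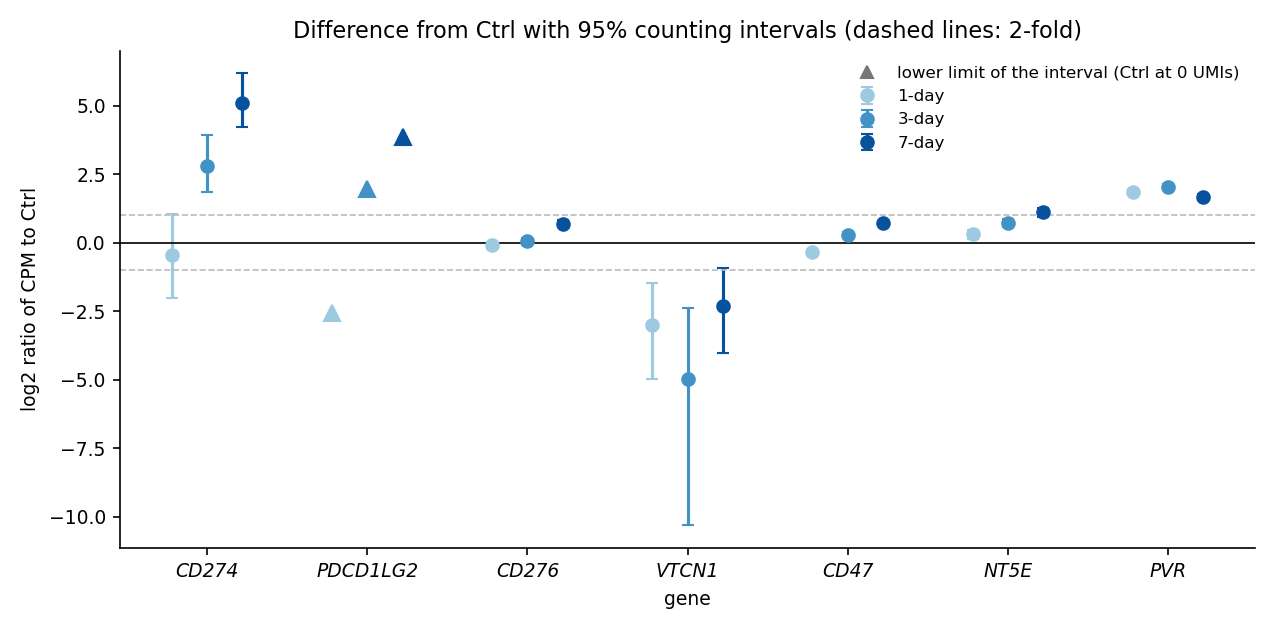
Log2 ratio of CPM to Ctrl of each ligand gene at 1, 3 and 7 days (light to dark), with exact conditional 95% intervals, where triangles are the lower limits of these intervals for *PDCD1LG2*, which had 0 UMIs in Ctrl, and dashed lines mark 2-fold. *PVR* is past 2-fold from 1-day on, *CD274* from 3-day on, and *NT5E* at 7-day, while *VTCN1* lies below 0 at all 3 times with wide intervals.

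*CD47*, the ligand of the macrophage receptor SIRPα, was lower than Ctrl at 1-day and higher at 3-day and 7-day. Its level was 71.5 CPM (68.5 to 74.6) in Ctrl, 56.2 (53.7 to 58.9) after 1 day, 88.1 (84.8 to 91.4) after 3 days and 117 (113 to 122) after 7 days. No 2 of these intervals overlap. The log2 ratio to Ctrl was -0.35 (-0.44 to -0.26), 0.30 (0.22 to 0.38) and 0.71 (0.63 to 0.79), so that no difference from Ctrl reached 2-fold. The share of cells at equal depth followed the same order, with 66.0% in Ctrl, 58.1% after 1 day, 70.8% after 3 days and 84.5% after 7 days. Without thinning it was 82.3%, 77.6%, 90.2% and 96.7%. G1 cells were slightly below G2M cells at every treated time (log2 -0.18, -0.15 and -0.21). In G1 cells alone the log2 ratio to Ctrl was -0.36 after 1 day and 0.62 after 7 days.

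Among 7 partners and modifiers of CD47, 5 passed the minimum level, of which 4 were called higher at 1-day, and 3 higher and 1 lower at both 3-day and 7-day. Over all genes tested, 10.1%, 10.9% and 12.9% were called higher at the 3 times, and 10.6%, 8.54% and 7.84% lower. *SIRPA*, which encodes the receptor of CD47 and is best known from myeloid cells, was at 3.70 CPM in Ctrl, 21.2 after 1 day, 64.3 after 3 days and 69.1 after 7 days. *THBS1*, encoding the secreted CD47 ligand thrombospondin-1, was at 121, 677, 577 and 498 CPM. *QPCT*, a glutaminyl cyclase of the secretory pathway, was at 9.40, 48.0, 83.1 and 81.2 CPM. Its relative *QPCTL*, the cyclase known to modify CD47 for SIRPα binding, was near 1 CPM in Ctrl and did not pass the minimum. *CALR*, whose surface protein favors phagocytosis, was called higher at 1-day only (log2 1.13), and its phagocyte receptor gene *LRP1* was lower at 3-day (log2 -1.36) and 7-day (log2 -1.30).

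*NT5E*, the gene of CD73, was higher at each later time point. Its level was 19.2 CPM (17.7 to 20.9) in Ctrl, 23.8 (22.2 to 25.5) after 1 day, 31.6 (29.7 to 33.6) after 3 days and 41.4 (38.9 to 43.99) after 7 days. None of these intervals overlaps the next. The log2 ratio to Ctrl was 0.31 (0.15 to 0.47), 0.72 (0.57 to 0.87) and 1.11 (0.96 to 1.25), the last a 2.15-fold difference. When the cells were split in barcode order, the 1-day ratio was 0.11 in the earlier and 0.49 in the later barcodes, and the 7-day ratio was 1.05 and 1.17. In G1 cells alone the log2 ratios were 0.28, 0.65 and 1.09. In G2M cells 1-day was close to Ctrl, with 17.2 CPM in Ctrl and 16.4 at 1-day. In S cells the levels were 20.8 CPM in Ctrl and 21.0 at 1-day, the latter from only 26 cells and 19 UMIs (12.7 to 32.8). Within 1-day, G1 exceeded G2M by 0.66 on the log2 scale (0.37 to 0.96). At equal depth 27.6% of Ctrl cells, 31.1% of 1-day cells, 42.5% of 3-day cells and 46.6% (42.4 to 50.9) of 7-day cells had a UMI. Without thinning the shares were 41.2%, 46.1%, 67.0% and 75.4%.

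CD73 is the last enzyme on the way from extracellular ATP to adenosine, and 16 other genes of that pathway were listed. Of the 8 that passed the minimum level, 2 were called higher and 1 lower at 1-day, 2 higher at 3-day and 4 higher at 7-day. The shares over all genes tested were 10.1%, 10.9% and 12.9% higher, and 10.6%, 8.54% and 7.84% lower. *SLC29A1*, the nucleoside transporter ENT1, was at 12.7 CPM in Ctrl, 74.2 after 1 day, 103 after 3 days and 73.2 after 7 days. Of the enzymes that remove adenosine or its product, *ADA* was called higher at all 3 times (6.00, 20.2, 17.5 and 17.2 CPM). *PNP* was called higher at 7-day only (21.2, 29.4, 42.3 and 57.0 CPM). *ADK*, the adenosine kinase, was called at no time (47.6, 44.3, 65.1 and 72.7 CPM). Upstream of CD73, *ENTPD3* was at 3.43 CPM in Ctrl and 7.76 after 7 days, whereas *ENTPD1* (CD39) had 10 UMIs in Ctrl and 0 after 7 days. *ADORA2B*, the adenosine receptor with most UMIs here, was lower at 1-day (7.65 CPM against 18.7 in Ctrl) and at 21.0 CPM at 7-day.

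*PVR*, the TIGIT and CD226 ligand, had most of its difference from Ctrl after 1 day. It was at 33.2 CPM (31.2 to 35.3) in Ctrl, 121 (117 to 125) after 1 day, 136 (132 to 140) after 3 days and 106 (102 to 110) after 7 days. All treated libraries stand well above Ctrl, and 3-day stands above both other times. The log2 ratio to Ctrl was 1.87 (1.76 to 1.97), 2.03 (1.93 to 2.13) and 1.67 (1.56 to 1.78), a 3.18- to 4.09-fold difference. From 3-day to 7-day it was 0.36 lower on the log2 scale (-0.43 to -0.29). At equal depth 43.0% (39.6 to 46.4) of Ctrl cells had a UMI, against 83.9% after 1 day, 85.5% after 3 days and 80.7% after 7 days. Without thinning the shares were 57.1%, 93.8%, 96.7% and 94.9%. In G1 cells alone the log2 ratios were 2.24, 2.35 and 2.04. In G2M cells the level was 33.8 CPM in Ctrl and 96.4, 130.5 and 100.5 CPM after 1, 3 and 7 days. On the log2 scale, G1 against G2M was -0.32 (-0.56 to -0.07) in Ctrl and 0.41 (0.29 to 0.53) at 1-day. The 3′ part of *PVR* overlaps the same-strand gene *CEACAM19*, which had 263, 900, 650 and 339 UMIs in Ctrl, 1-day, 3-day and 7-day, and the opposite-strand *CEACAM16-AS1*, which had 425, 269, 185 and 234. The levels of *PVR* and *CEACAM19* are uncertain to that extent.

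**Figure D3:**
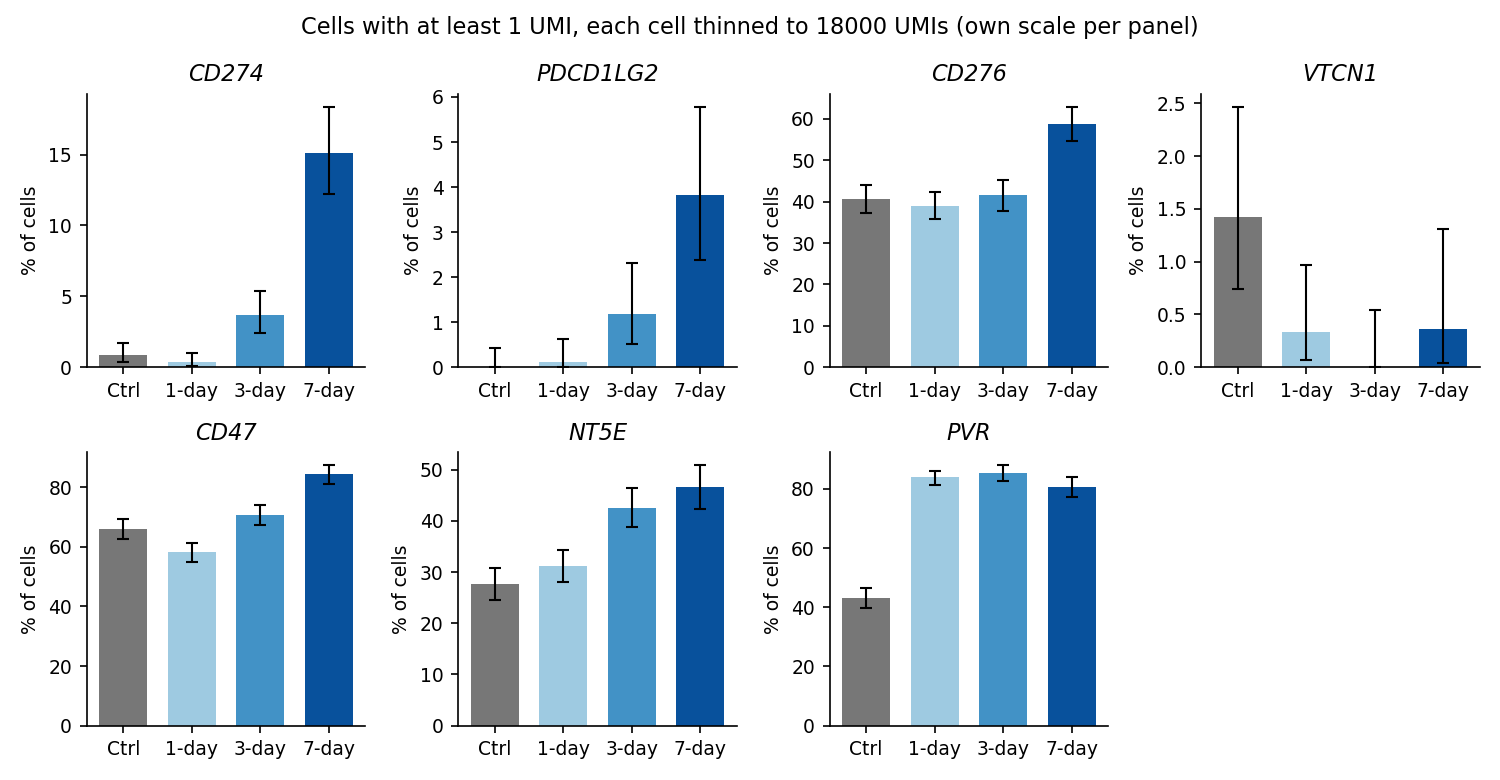
Share of cells with at least 1 UMI of each ligand gene after each cell was thinned to 18000 UMIs, with exact binomial 95% intervals and 549 to 900 cells per bar, each panel on its own scale. *PVR* was found in 43.0% of Ctrl cells and in 80.7% to 85.5% of treated cells, and *CD274* in 15.1% of 7-day cells.

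The nectins are relatives of PVR that include other TIGIT ligands. Of 6 nectin and nectin-like genes, 5 passed the minimum level, none was called higher at any time, and 2, 3 and 1 were called lower at 1-day, 3-day and 7-day. Among all genes tested, 10.6%, 8.54% and 7.84% were called lower at these times, and 10.1%, 10.9% and 12.9% higher. With 5 genes, the absence of a gene called higher is near these shares. *NECTIN3*, an adhesion partner of PVR that TIGIT also binds, was at 51.0 CPM in Ctrl, 21.9 after 1 day, 14.3 after 3 days and 11.2 after 7 days. *NECTIN1* was lower at 1-day (log2 -1.21) and 3-day (log2 -1.13), and *NECTIN4*, another TIGIT ligand, at 3-day (log2 -1.20). *NECTIN2*, likewise bound by TIGIT, was above Ctrl at all 3 times, short of 2-fold. It was at 49.7 CPM in Ctrl and 63.4, 73.1 and 68.9 after 1, 3 and 7 days. The log2 ratios of *NECTIN2* were 0.35 (0.25 to 0.45), 0.56 (0.46 to 0.65) and 0.47 (0.37 to 0.57).

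Ligands of the activating NK receptors differed in part. Of 9 genes of NKG2D and NKp30 ligands, 6 passed the minimum level, of which 2 were called higher at 1-day and 5 at both 3-day and 7-day, and none lower. All genes tested had shares of 10.1%, 10.9% and 12.9% higher, and 10.6%, 8.54% and 7.84% lower. In the order of Ctrl, 1-day, 3-day and 7-day, *MICA* was at 20.3, 38.0, 53.7 and 44.6 CPM. *MICB* was at 2.07, 1.73, 5.32 and 9.85 CPM and *ULBP2* at 1.37, 2.73, 4.79 and 3.66 CPM. *RAET1G* was at 0.23, 5.34, 3.14 and 1.22 CPM, and *RAET1E* at 0.17, 1.27, 1.03 and 1.58 CPM. Both were below 1 CPM in Ctrl and passed the minimum through the treated libraries. *NCR3LG1*, the NKp30 ligand of the list, was at 5.07 CPM in Ctrl and 5.99 after 7 days (log2 0.24, -0.09 to 0.57), and *ULBP1*, *ULBP3* and *RAET1L* did not pass the minimum. The MIC, ULBP and RAET1 genes have close paralogs, and counts may be split between them.

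A wider list of immune-regulatory genes, which holds costimulatory and adhesion genes as well as inhibitory ligands, differed in both directions. Of 23 listed, 12 passed the minimum level, of which 4 were called higher and 3 lower at 1-day, 3 and 3 after 3 days, and 3 and 4 after 7 days, with a 7-day median log2 ratio of 0.00. The corresponding shares of all genes tested were 10.1% and 10.6%, 10.9% and 8.54%, and 12.9% and 7.84%. *ICAM1*, the adhesion ligand of LFA-1, was at 1.23 CPM in Ctrl, 2.91 after 1 day, 9.71 after 3 days and 27.9 after 7 days. *CD40* was at 4.53, 9.71, 12.7 and 13.5 CPM, and *HLA-E*, the ligand of NKG2A, at 22.2, 35.3, 45.2 and 49.8 CPM. The ICOS ligand gene *ICOSLG* was at 10.0, 0.52, 1.12 and 0.51 CPM, and *VSIR* (VISTA) at 31.2, 10.0, 9.86 and 14.4 CPM. *ICOSLG* passed the minimum only through Ctrl and had to differ, so that the counts called lower in this list follow in part from the minimum. *HHLA2* was lower at 7-day only (log2 -1.02), *TNFRSF14* at 1-day (log2 -2.46) and 3-day (log2 -1.12), and *CD58* was higher at 1-day (log2 1.02). *LGALS3* was higher than Ctrl (235 CPM) after 1 day (715) and lower at 7-day (87.0). Below the minimum level, *CD70* had 1 UMI in Ctrl, 0 after 1 day, 26 after 3 days and 48 after 7 days, *SIGLEC15* had 4, 5, 14 and 33, *CD200* had 0, 33, 31 and 8, and *TNFSF4* had 35, 1, 6 and 7.

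Receptors through which immune cells read these ligands were listed as well. *PDCD1*, *TIGIT*, *TREML2* and *CTLA4* had 0 UMIs in every library. Of 9 receptors, *SIRPA* and *CD226* passed the minimum level, and *CD226* was at 0.43 CPM in Ctrl, 0.27 after 1 day, 1.46 after 3 days and 2.13 after 7 days. *CD226* thus passed only through its 3-day and 7-day libraries and had to differ.

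**Figure D4:**
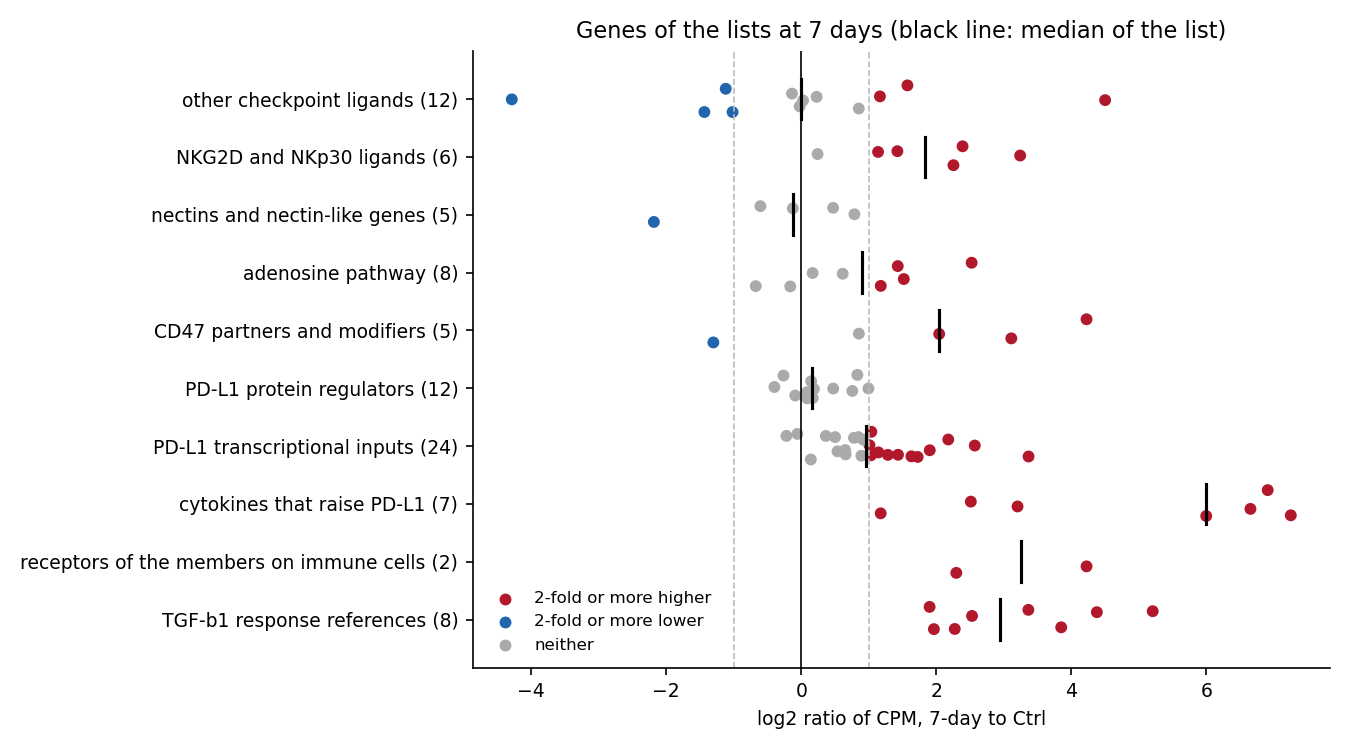
Log2 ratio of CPM of 7-day to Ctrl of the genes of each list that passed the minimum level (their number in brackets), with vertical scatter added for legibility, called genes in color, and list medians as black lines. The list labelled other checkpoint ligands also holds costimulatory and adhesion genes. The cytokine list, of which 3 genes passed only through treated libraries, has a median of 6.00, the PD-L1 transcriptional inputs 0.96, and the PD-L1 protein regulators 0.16. *RAET1E* and *RAET1G* of the NKG2D and NKp30 list and *CD226* of the receptor list likewise passed only through treated libraries. *ICOSLG* of the list labelled other checkpoint ligands passed only through Ctrl.

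More of the 7 ligand genes were found per cell at each later time. At equal depth the mean number with a UMI was 1.79 in Ctrl and 2.13, 2.45 and 2.90 after 1, 3 and 7 days, with an SD over cells of 0.90 to 1.00 in each library. From Ctrl to 1-day, the share of cells was higher for *PVR* (43.0% and 83.9%), *NT5E* (27.6% and 31.1%) and *PDCD1LG2* (0% and 0.11%). It was lower for *CD47* (66.0% and 58.1%), *CD276* (40.5% and 39.0%), *VTCN1* (1.42% and 0.33%) and *CD274* (0.83% and 0.33%). None of the 7 was found in 8.41% of Ctrl cells, 2.33% of 1-day cells, 1.18% of 3-day cells and 0.18% of 7-day cells. At least 4 were found in 3.55%, 6.11%, 12.6% and 27.9% of cells. No cell had more than 5, and 5 were found in 5 cells of 3-day and 23 cells of 7-day.

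**Figure D5:**
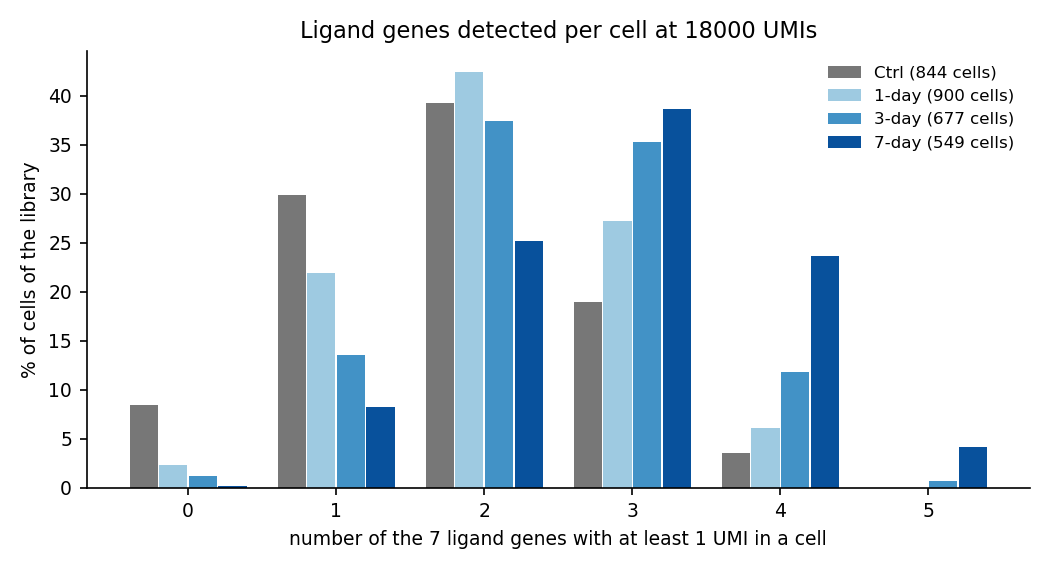
Share of the cells of each library in which 0 to 5 of the 7 ligand genes had at least 1 UMI, with each cell thinned to 18000 UMIs. The most frequent number was 2 in Ctrl, 1-day and 3-day cells and 3 in 7-day cells, and 5 genes were found only in 3-day and 7-day cells.

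Within the 7-day library, cells with and without *CD274* had the other ligand genes at similar shares. Among the 83 cells with *CD274*, 61.4% had *CD276*, 80.7% *CD47*, 53.0% *NT5E* and 80.7% *PVR*, and among the 466 cells without it the shares were 58.4%, 85.2%, 45.5% and 80.7%. The exact binomial intervals overlap for each of the 4 genes. Of the 21 cells with *PDCD1LG2*, 1 also had *CD274*, so that *PDCD1LG2* was in 1.20% (0.03 to 6.53) of cells with *CD274* and 4.29% (2.64 to 6.55) of cells without it. Spearman's rho between members over the 549 cells ranged from -0.07 to 0.08. These counts are sparse, and a relation between genes is hard to see at this depth.

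The genes whose course was most like that of a member were taken from 12660 genes, as those with the smallest largest difference between their 3 log2 ratios and the member's. For *CD274* they were *CD74* (0.64), *MFAP5* (0.66) and *STEAP1B* (0.73). *CD74*, the invariant chain of MHC class II, was at 0.13 CPM in Ctrl, 0.15 after 1 day, 0.93 after 3 days and 3.66 after 7 days. The genes compared had a mean of at least 1 CPM. *CD74*, *MFAP5* and *STEAP1B* were all below 1 CPM in Ctrl and at 1-day. They passed this minimum only through later libraries, so that they had to differ and their likeness follows in part from the minimum. For *NT5E* they included *HIF1A* (0.05) and *PCGF1* (0.05), and for *PVR* they were *IVNS1ABP* (0.07), *BCAR3* (0.11) and *RASSF10* (0.12). For *VTCN1* they were *SPRY1* (0.85), *KRT20* (0.90) and *SEMA6A* (0.93), of which *SEMA6A* passed the minimum only through Ctrl (5.07 CPM, against 0.31 to 0.67 after treatment). Likeness over 3 ratios that share the Ctrl library is a description only.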

How the data were processed

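The authors aligned 10x Genomics 3′ reads with Cell Ranger 2.0.1 (GRCh38) per the labels and deposited UMI counts per gene and cell, without normalization, in 1 matrix per library. The last analysed cell of each matrix, whose rows were incomplete, was dropped. Cells were kept with over 200 genes, as the authors did, and a mitochondrial share of at most 20%, a limit chosen here. Scrublet (scanpy 1.11.5) marked 9 to 11 cells per library, which were kept except in an alternative. Phases used the Seurat 5.3.0 gene lists (R 4.3.3).

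UMI counts were summed per library and scaled to CPM. Exact Poisson, conditional and binomial intervals were computed with scipy 1.17.1 in Python 3.11.15. For shares, cells were thinned without replacement to 18000 UMIs. Shallower cells (20 to 89 per library) were left out of them. Steps were tested on simulated data. Genes named are the 7 members, list genes past 2-fold with an interval leaving out 0 at any time, protein-coding genes within 500 kb of *CD274* (GENCODE release 44), and the 3 genes most like each member past 2-fold. Genes singled out beside these (such as *IRF1*, *CMTM6*, *NECTIN2*, *NCR3LG1*, *ADK*, *QPCTL* and the interferon genes) were chosen after their values were seen. The members and lists were chosen with earlier results of these data known. Not every list gene past 2-fold is named, and some genes that this rule gives are not reported here.

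Alternatives were a mitochondrial limit of 10%, doublets left out, median-of-ratios scaling, means over cells, thinning to 18000 or 10000 UMIs, G1 cells only, both parts of the cells in barcode order, and other minimum levels. Regression of covariates was not applied.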

Additional observations from a re-analysis of the deposited data

Results flagged for a closer look

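The genes *CD47*, *LGALS3* and *IL1B* lay on opposite sides of Ctrl at different times, with 95% counting intervals that leave out 0 on both sides. The log2 ratio of *CD47* to Ctrl was -0.35 at 1-day, 0.30 at 3-day and 0.71 at 7-day. *LGALS3*, the gene of galectin-3, had 1.60 at 1-day and -1.44 at 7-day. *IL1B* had -4.53 at 1-day, -1.32 at 3-day and 3.20 at 7-day, where the 1-day value rests on 2 UMIs (-7.62 to -2.59). With 1 library per time point, the difference between times was not tested for any of the 3 genes, and the cell cycle phases and depth of the libraries differed as well.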

How the results depend on the processing

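No result changed direction under any alternative for a called value, and of 158 log2 ratios of members under 8 alternatives, 143 stayed within the main 95% counting interval and 15 did not. In G1 cells only, the log2 ratio to Ctrl was 0.60 (3-day) and 2.44 (7-day) for *PDCD1LG2* against the floor, 1.03 for *CD276* at 7-day, 0.62 for *CD47* at 7-day, and 2.24, 2.35 and 2.04 for *PVR* at 1-day, 3-day and 7-day. In the first and second part of the cells, *PDCD1LG2* against the floor was 1.38 and 1.42 at 3-day and 3.28 and 3.14 at 7-day, and *NT5E* at 1-day was 0.11 and 0.49. After thinning to 18000 UMIs, *PDCD1LG2* against the floor was 3.43 at 7-day and *VTCN1* at 3-day, then with 0 UMIs, was -1.90 against the floor. Ratios to a floor of 3 UMIs shrink by construction with fewer cells or UMIs, and the cause of the other shifts was not tested. The 7-day minus Ctrl share of cells, in percentage points, became 11.2 (*CD274*), 1.07 (*PDCD1LG2*), 13.4 (*CD276*) and 14.1 (*NT5E*) at 10000 UMIs. It became 33.4 (*CD274*), 7.38 (*PDCD1LG2*), 24.2 (*CD276*), 14.3 (*CD47*) and 34.2 (*NT5E*) without thinning. The difference in members per cell was 1.11, and 0.95 at 10000 UMIs. Genes called lower numbered 823 at 1-day, 507 at 3-day and 474 at 7-day with a minimum of 5 CPM (1346, 1084 and 995 in the main setting), and 1856 at 3-day and 1651 at 7-day with no minimum. Genes called higher at 7-day numbered 1088 with a minimum of 5 CPM (1634 in the main setting). The minimum also sets how many genes are tested, so that these counts change in part by construction and are not shares. Median-of-ratios scaling moved log2 ratios by 0.08, 0.02 and -0.06 at 1-day, 3-day and 7-day. No paired analysis was possible because each group has 1 library and no test was made. The share of cells analysed, 1 library per time point and low counts of *PDCD1LG2* and *VTCN1* limit these results.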
